A study of Mus musculus with 4 samples.

Results

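Of 45 genes that define the identity of long-term hematopoietic stem cells (LT-HSCs) or mark their surface, 17 had at least 1 peak in the deposited table of ATAC-Seq peaks that the authors called different between Sin3B+/+ and Sin3B-/- LT-HSCs, and 28 had none. The genes were taken by name, each peak counting for the gene the table assigns to it, and they held 25 of its 5332 peaks. The table named 4376 genes in all. The share of all annotated genes with a peak was not counted, so counts of genes with a peak have no background here or below. Accessibility was higher in Sin3B-/- cells at 24 of these peaks, among them peaks of Runx1, Gata2, Lyl1, Lmo2, Erg, Myc, Procr and Slamf1, by 1.43 to 2.15 times. It was lower at 1, in an intron of Msi2. Of all peaks in the table, 95.7% were higher in Sin3B-/- and 4.29% were lower, so the direction at the stem cell genes was that of nearly every peak in the table. The table holds called peaks only, and fewer in each direction than the paper reports. Some peaks that the paper called may therefore be missing from it. Genes without a peak in it may be accessible and alike in both genotypes, and peaks without a call were not analysed here.

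Sin3B is a scaffold protein of a histone deacetylase complex that represses transcription, and the comparison asked how its loss changes chromatin in LT-HSCs at homeostasis. Sin3B-/- mice were Sin3B F/F mice crossed to Vav1-iCre, a transgene that deletes in all hematopoietic cells from fetal life onwards, on a C57BL/6 background. The controls were labelled WT, the study writes them both as Sin3B+/+ and as Sin3B F/F, and whether they carried Cre was not given in the sources used here. Each of the 4 libraries, 2 a genotype, was a pool of sorted L-S+K+Flk2-CD48-CD150+ bone marrow cells from 2 mice. Age at harvest was not given for these libraries.

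ATAC-Seq uses a transposase that cuts accessible DNA, so the number of reads in a peak follows how open that stretch of chromatin is in the pooled cells. LT-HSC identity rests on a small set of transcription factors that bind one another's enhancers. These include GATA2, the E-box factors SCL (Tal1) and LYL1 with their bridging partners LMO2 and LDB1, RUNX1 with its cofactor CBFβ, and the ETS factors ERG and FLI1. The surface proteins of the second group are receptors and adhesion molecules by which the cells are sorted or receive signals, such as KIT, TEK, EPCR (Procr), CD150 (Slamf1) and ESAM.

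The peaks lay mostly away from gene starts, and the central bases of 6 of them are shown on the plus strand of GRCm38. Capitals mark each match, on either strand, to 5 short motifs. For GATA factors the letters searched were AGATAA, and for RUNX factors they were TGTGGT. For ETS factors they were GGAAGT. The E-box known to be read by SCL and its partners was searched as CATCTG. The E-box of MYC was searched as CACGTG. Runx1, Lmo2 and Erg are the factor genes of 3 lists with the largest change among their intronic or intergenic peaks, Slamf1 encodes CD150, which was used to sort the cells, and Msi2 is the gene with the peak that was lower. The Gata2 window was chosen after its values were seen, because its first bases hold an E-box followed by a GATA motif. The windows are Runx1 at chr16:92822226-92822525, Gata2 at chr6:88203174-88203473, Lmo2 at chr2:103944957-103945256, Erg at chr16:95640770-95641069, Slamf1 at chr1:171773315-171773614 and Msi2 at chr11:88687054-88687353.
Runx1: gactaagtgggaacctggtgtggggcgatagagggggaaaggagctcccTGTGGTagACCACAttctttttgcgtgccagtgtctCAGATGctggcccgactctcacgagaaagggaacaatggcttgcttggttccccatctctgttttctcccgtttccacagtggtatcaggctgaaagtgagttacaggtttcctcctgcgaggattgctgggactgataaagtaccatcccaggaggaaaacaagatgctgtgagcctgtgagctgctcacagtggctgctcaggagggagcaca
Gata2: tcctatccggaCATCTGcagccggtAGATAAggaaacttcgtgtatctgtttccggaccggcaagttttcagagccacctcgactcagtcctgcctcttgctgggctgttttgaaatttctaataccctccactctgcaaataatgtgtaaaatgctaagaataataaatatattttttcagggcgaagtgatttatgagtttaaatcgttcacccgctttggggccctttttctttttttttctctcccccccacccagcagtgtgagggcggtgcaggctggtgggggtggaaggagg
Lmo2: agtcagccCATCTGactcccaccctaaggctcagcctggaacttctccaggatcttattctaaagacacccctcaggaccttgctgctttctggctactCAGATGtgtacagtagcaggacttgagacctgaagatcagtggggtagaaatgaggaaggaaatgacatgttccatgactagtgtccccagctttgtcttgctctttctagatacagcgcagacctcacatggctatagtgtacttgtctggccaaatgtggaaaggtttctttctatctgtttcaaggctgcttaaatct
Erg: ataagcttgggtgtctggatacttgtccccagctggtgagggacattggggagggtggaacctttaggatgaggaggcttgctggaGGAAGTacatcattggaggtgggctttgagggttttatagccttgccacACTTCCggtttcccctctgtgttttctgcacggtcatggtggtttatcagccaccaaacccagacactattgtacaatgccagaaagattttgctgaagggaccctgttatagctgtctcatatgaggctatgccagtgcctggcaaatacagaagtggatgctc
Slamf1: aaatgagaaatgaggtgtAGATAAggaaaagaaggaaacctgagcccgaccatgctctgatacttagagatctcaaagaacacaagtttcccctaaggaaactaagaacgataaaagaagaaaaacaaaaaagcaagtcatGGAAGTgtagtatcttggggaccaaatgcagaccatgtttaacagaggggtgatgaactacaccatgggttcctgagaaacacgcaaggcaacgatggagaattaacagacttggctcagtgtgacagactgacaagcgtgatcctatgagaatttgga
Msi2: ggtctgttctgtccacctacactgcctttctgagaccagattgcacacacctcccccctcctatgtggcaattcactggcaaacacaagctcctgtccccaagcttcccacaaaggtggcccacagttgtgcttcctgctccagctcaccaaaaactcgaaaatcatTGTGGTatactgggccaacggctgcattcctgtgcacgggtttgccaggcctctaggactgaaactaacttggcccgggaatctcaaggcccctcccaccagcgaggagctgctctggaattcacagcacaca

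The Gata2 window opened with CATCTG, 8 other bases and then AGATAA, the layout of the composite element that the SCL, LMO2 and GATA complex is known to bind, and the well-studied intronic enhancer of Gata2 is of this kind. An E-box of any form (CANNTG) at that spacing from AGATAA stood in 26 of the 5332 windows of the table, or 0.488%, and in 1 of the 25 at the stem cell genes. The Runx1 window carried TGTGGT and, 2 bases on, the same motif on the other strand, so the gene of a RUNX factor had a pair of RUNX letters in its own peak. The Erg window had 2 ETS matches and the Lmo2 window 2 of the SCL E-box. The Slamf1 window held a GATA and an ETS match, and the Msi2 window a RUNX match. These matches are letters in the sequence and were not measured as binding.

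Before the values of single genes, 2 features of the libraries bear on all of them. The levels were scaled by the authors with 1 factor for each library, and every value was within 0.01 of a whole multiple of a step, 0.228 and 0.343 in the Sin3B+/+ libraries, against 0.625 and 1 in the Sin3B-/- libraries. If a step is 1 read, the peaks of the table held between 3102888 and 8705855 reads a library, with the fewest in Sin3B-/- replicate 2. The median shift between genotypes over the table was 0.76 on the log2 scale. When each library was centred on its own median, 374 peaks were still called higher (7.01%) and 229 lower (4.29%), and this split is given with the main one because the share of higher peaks depends on the scaling. The second feature is the spread between libraries. At the stem cell genes Sin3B+/+ replicate 1 was above replicate 2 at 23 of 25 peaks and Sin3B-/- replicate 2 above replicate 1 at 21 of 25, with 4675 and 3840 of 5332 in the table.

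The test was limma on log2(level + 1) over all peaks of the table with Benjamini-Hochberg adjustment, in which every peak shared the same standard error of 0.215. It called all 24 higher peaks and the lower one, as it called 5332 of 5332 peaks, so these calls add nothing to the authors' selection. The libraries of the genotypes did not overlap at any of these peaks, 5103 higher and 229 lower, the stem cell genes included. Without Sin3B-/- replicate 2, the calls at the stem cell genes fell from 24 to 11 higher, while those over the table fell from 5103 to 3121. With centred libraries 0 of the 24 were called higher and the Msi2 peak was still called lower. Fold changes are given below as log2 of the ratio of mean levels, Sin3B-/- over Sin3B+/+. The gene start below is the first base of the whole gene as annotated, and other annotated starts of the same gene can be nearer.

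Both peaks of Runx1, the RUNX factor needed for the first HSCs to form, were in introns at 3.77 and 24.4 kb from the gene start. At the first (chr16:92821885-92822865) the levels were 1080.4 and 983 in Sin3B+/+ against 1620.1 and 1745 in Sin3B-/-. The change was 0.71 (adjusted p = 0.0016) or -0.046 once the libraries were centred. At the second (chr16:92801346-92802216) the levels were 633 and 499 against 742 and 949, a change of 0.58. Sin3B-/- replicate 2 stood well above replicate 1 there, and the lowest Sin3B-/- library was 1.17 times the highest Sin3B+/+ library. Of the other RUNX genes, Runx2, Runx3 and the cofactor gene Cbfb had no peak by name.

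The GATA, SCL and LMO2 complex had a peak at 3 of its 5 genes. The Gata2 peak (chr6:88202886-88203760) was intronic, 9.43 kb into the gene and 4989 bp from the nearest annotated start, also of Gata2. Its levels were 722 and 609 in Sin3B+/+ against 888 and 1017 in Sin3B-/-. Its change of 0.52 (adjusted p = 0.016) was the smallest of the 24 peaks that were higher. Relative to the median peak of the table it was at -0.23 (adjusted p = 0.31).

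Lyl1, the SCL paralog, had the most accessible peak of the set, over its promoter (chr8:84701159-84701922, 83 bp from the start). Levels were 2076 and 1741 in Sin3B+/+ against 3137 and 3702 in Sin3B-/-, a change of 0.84 (adjusted p = 0.00022), and the mean was above 99.2% of the peaks in the table. Its centred change was 0.089.

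Lmo2, which encodes the bridging LIM protein, had an intergenic peak at -12.9 kb (chr2:103944926-103945287). Levels were 115 and 98.0 in Sin3B+/+ against 167 and 251 in Sin3B-/-, a change of 0.97 (adjusted p = 3.9e-05). This was the second largest gain among the factors, although the Sin3B-/- libraries lay far apart, at 209 ± 59.1 (SD, n = 2). Tal1 and Ldb1 had no peak by name.

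Erg, the ETS factor required for HSC maintenance, had 3 peaks, and Fli1 and Etv6 had none. The intergenic one at -54.3 kb (chr16:95640674-95641165), whose bases are printed above, had levels of 72.6 and 57.9 in Sin3B+/+ against 128 and 153 in Sin3B-/-. At 2.15 times (log2 1.11, adjusted p = 1.7e-06) it was the 1 stem cell gene peak with a change of at least 2-fold, which 26.1% of the peaks in the table reached. Its centred change of 0.35 was the largest gain in the set and was not called (adjusted p = 0.13). The 2 intronic peaks were at 134 and 147 kb from the gene start, but 6678 and 19652 bp from the nearest annotated start, also of Erg. Both were more accessible per kb than the intergenic one and changed by 0.69 and 0.77.

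Myc, the growth regulator, was with Lyl1 the only gene of the set with a peak classed as promoter, at -78 bp (chr15:61984878-61985748). The Nfe2 peak described below was also at its gene start but was classed as intron. In the annotation used, the nearest transcript start, also of Nfe2, put that peak at -2961 bp. Levels at the Myc peak were 540.3 and 404 in Sin3B+/+ against 689 and 679 in Sin3B-/-. This was a change of 0.53 (adjusted p = 0.011) with Sin3B-/- libraries that were close together. None of the 5 motifs was in its central window, the MYC E-box included. Myb, Mycn and Mycl had no peak.

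Among the other factors and cofactors, 5 of 10 genes had a peak. Nfe2, a bZIP factor of megakaryocytes and HSCs, had levels of 1478 and 1158 in Sin3B+/+ against 2213 and 2530 in Sin3B-/- at a peak centred 3 bp from its gene start (chr15:103257993-103258808), a change of 0.85. Hhex, a homeobox gene, had levels of 1107 and 1039.9 against 1642 and 1776 in an intron 882 bp from the start (chr19:37435296-37436088), a change of 0.67. Their mean levels were above 97.3% and 94.5% of the peaks in the table.

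Prdm16, a zinc finger factor that maintains HSCs, had levels of 534 and 441 against 679 and 870 in an intron 95.0 kb from the start (chr4:154541403-154542268), a change of 0.67. Mllt3, a reader of acylated histones that sustains HSC expansion, had levels of 226 and 208 against 279 and 406 in an intron 209.8 kb from the start (chr4:87823207-87824004), a change of 0.66. Relative to the nearest annotated start, also of Mllt3, this peak was at -17282 bp. In both genes Sin3B-/- replicate 2 was far above replicate 1. Mecom, Hlf, Gfi1, Sox4 and Tcf15 had no peak by name.

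Nfix, an NFI factor needed for HSC survival after transplantation, had 5 peaks, more than any other of the 45 genes. They changed by 0.57 to 0.83, the largest at chr8:84709218-84709508 with levels of 145 and 118 in Sin3B+/+ against 234 and 233 in Sin3B-/-. Lyl1 lies inside the Nfix gene on the opposite strand, and the 5 Nfix peaks and the Lyl1 promoter fell within 38.3 kb. The peak at -1.36 kb from the Lyl1 start (chr8:84699862-84700342), assigned to Nfix by the table, rose from 805 ± 109 to 1198 ± 163 (SD, n = 2 each). Neighbouring peaks of a locus are not independent, and without Nfix the median change of the transcription factor peaks was 0.69 over 13 peaks, against 0.67 over all 18.

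**Figure D1:**
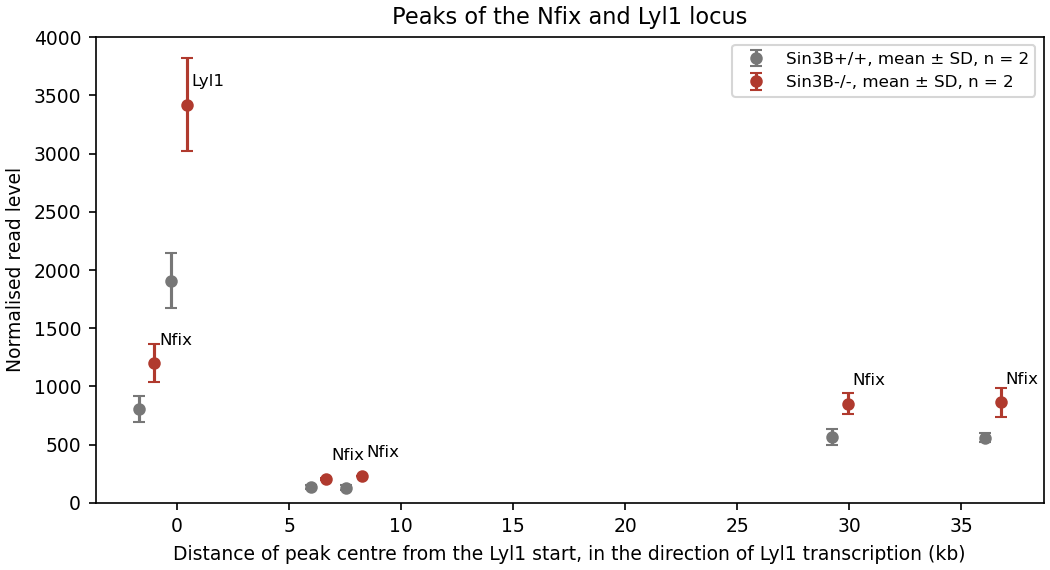
Mean normalised read level (± SD, n = 2 libraries a genotype) of the 6 peaks assigned to Nfix or Lyl1, plotted by distance from the Lyl1 start in kb, with the genotypes set slightly apart for clarity. The Lyl1 promoter stands above the other 5 in both genotypes, and at each of the 6 peaks the Sin3B-/- mean is the higher.

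Receptors and surface markers had a peak at 3 of 10 genes. Procr, which encodes the protein C receptor EPCR, had 2 intergenic peaks downstream of its start. At 14.0 kb (chr2:155764752-155765397) the levels were 43.1 and 45.9 in Sin3B+/+ against 73.7 and 100 in Sin3B-/-, a change of 0.96 (adjusted p = 4.6e-05), although the start of Mmp24 is nearer to this peak. At 4.81 kb (chr2:155755710-155756145) they were 92.2 and 96.3 against 155 and 158, a change of 0.73, with the tightest replicates of the set relative to the difference.

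Slamf1, which encodes the sorting marker CD150, had levels of 124 and 106 in Sin3B+/+ against 169 and 240 in Sin3B-/- in an intron 6.34 kb from the start (chr1:171772935-171773994), a change of 0.83 (adjusted p = 0.00037). Esam, an adhesion molecule of HSCs and endothelium, had levels of 134 and 114 against 183 and 216 in an intron 2.93 kb from the start (chr9:37530847-37531161), a change of 0.69 (adjusted p = 0.0022). After centring the changes were 0.056 and -0.068. Kit, Tek, Cd34, Flt3, Cd48, Ly6a (Sca-1) and Pdzk1ip1 had no peak, so the table named 1 of the sorting markers among these genes, Slamf1.

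The remaining peaks belonged to a ligand, a marker and an RNA-binding protein. Angpt1, the ligand of TEK, had levels of 90.1 and 81.6 in Sin3B+/+ against 132 and 156 in Sin3B-/- at chr15:42479354-42480018, an intron 197 kb from the start, a change of 0.75. Fgd5, whose expression marks LT-HSCs, had levels of 83.3 and 61.4 against 133 and 119 at chr6:92067097-92067526, an intron 88.4 kb from the start, a change of 0.80. Vwf, Ctnnal1 and Ndn had no peak.

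Msi2, an RNA-binding protein that regulates HSC self-renewal, was the exception in direction. Levels at chr11:88686966-88687440, in an intron 31.3 kb from the start, were 149 and 124 in Sin3B+/+ against 56.9 and 87 in Sin3B-/-. This was a change of -0.92 (adjusted p = 4.0e-05) that became -1.69 with centred libraries (adjusted p = 0.00036). It was the 1 peak of the 25 still called with centred libraries. Centring shifts every change downwards, so it could only make a lower peak lower. Over the table, 229 peaks were called lower both before and after it. A scaling in the other direction was not tried. The other genes of that list, Lin28b, Igf2bp2 and Hmga2, parts of a fetal HSC program, had no peak.

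**Figure D2:**
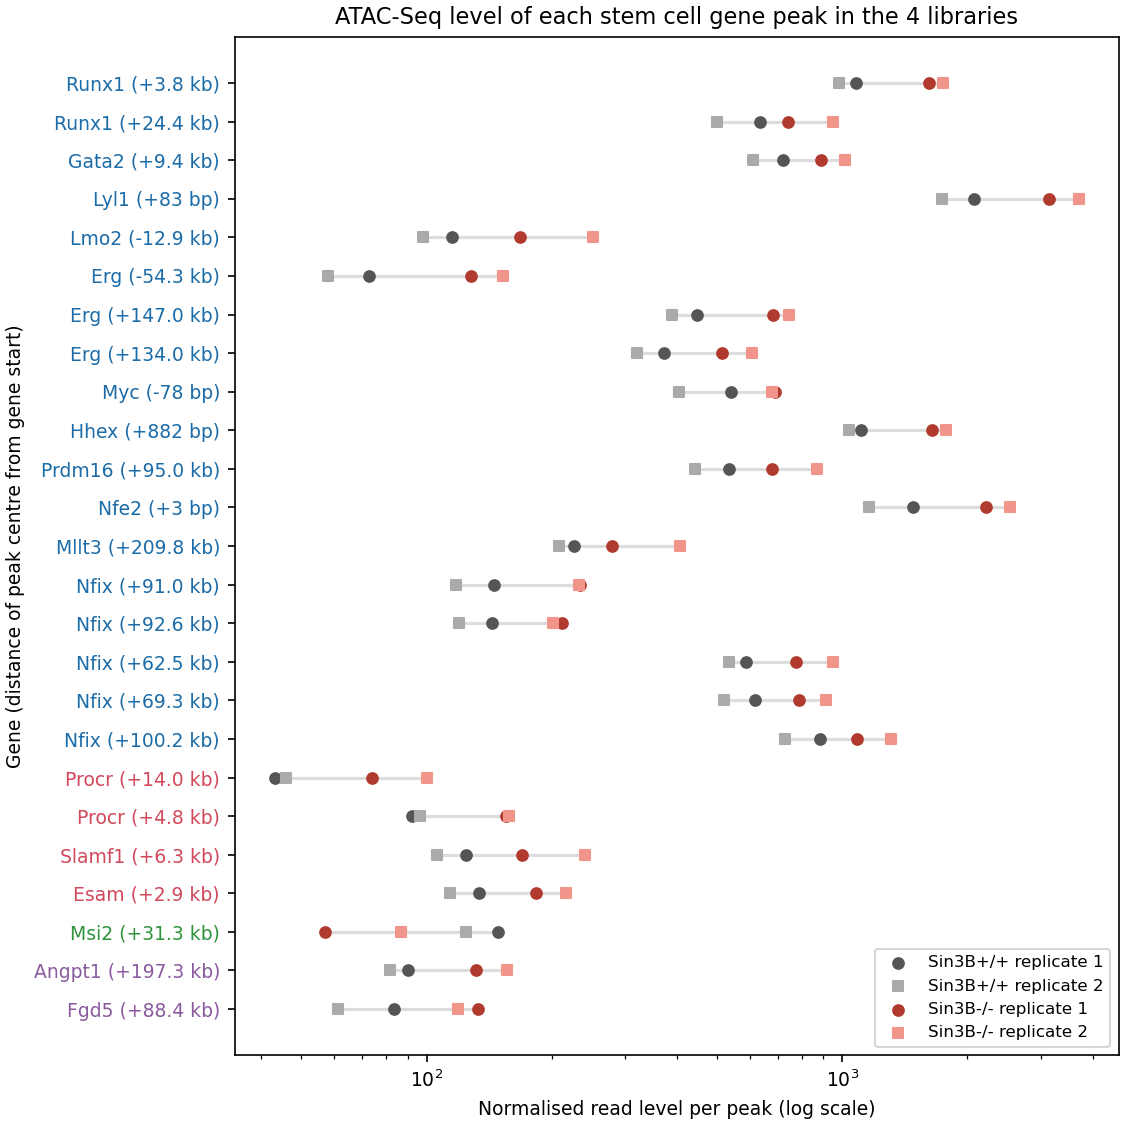
Normalised read level (log axis) of each of the 25 peaks in the 4 libraries, with genes named at the left with the distance of the peak from the gene start and coloured as transcription factors (blue), surface markers (red), RNA-binding proteins (green) and ligands and other markers (purple). The Sin3B-/- libraries lie to the right of both Sin3B+/+ libraries in every row but Msi2, where they lie to the left.

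Transcription factors and surface markers were then set side by side. A peak was found at 11 of 26 factor genes and 3 of 10 surface genes, and the share over all annotated genes was not counted. The 18 factor peaks had a median change of 0.67 (0.52 to 1.11) and the 4 surface peaks one of 0.78 (0.69 to 0.96), beside 0.76 over the table. On the scale of the test the medians differed by -0.10, factors minus surface markers, which was less than the spread of that difference between libraries (0.111). It ranged from -0.15 to -0.036 over the alternative settings. An exact permutation test of 2 against 2 libraries cannot give a p-value below 0.3333, and no test was made of this difference.

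The classes stood further apart in level than in change. Per kb of peak the Sin3B+/+ level had a median of 607 at the factor peaks (133 to 2498) and 162 at the surface marker peaks (68.9 to 393), with 289 over the table. In Sin3B-/- the medians were 933 and 276. Of the 18 factor peaks, 4 had a level per kb under that of the highest surface peak, at Esam. The classes also differed in place, with 2 promoter peaks among the factors and 0 among the surface markers. The factor peak of Nfe2 was at its gene start as well. The part of place in the levels was not tested. These are descriptions of peaks chosen by gene name, and each class holds peaks of the same gene.

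**Figure D3:**
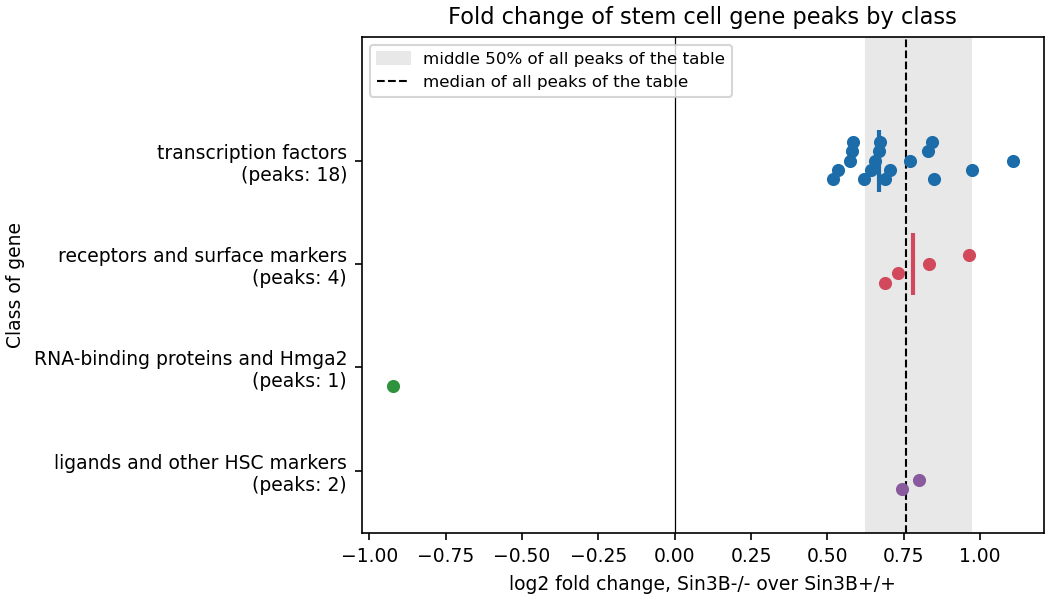
Log2 fold change, Sin3B-/- over Sin3B+/+, of each peak by class of gene, with a vertical bar at the class median where a class has over 2 peaks. The grey band spans the middle 50% of the table's peaks (0.63 to 0.97) and the dashed line is their median of 0.76, and the factor peaks reach from below the band to 1.11.

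**Figure D4:**
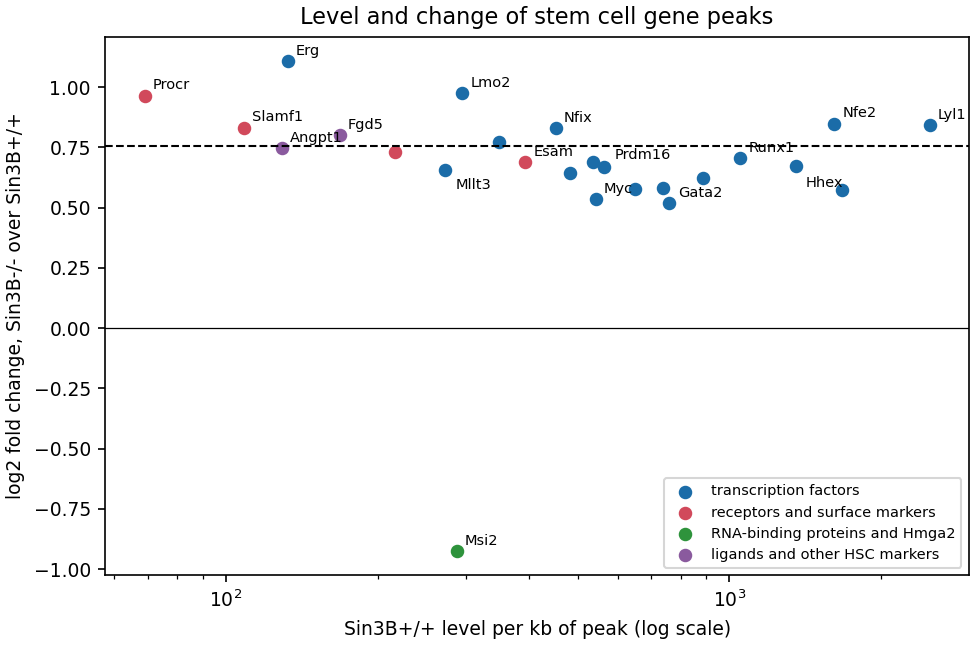
Log2 fold change against the Sin3B+/+ level per kb of peak (log axis) for the 25 peaks, with the table's median change dashed and the name of each gene at its most changed peak. Lyl1 and Nfe2 are highly accessible and change by 0.84 and 0.85. Of the peaks at the top, Erg and Procr have a low Sin3B+/+ level per kb (133 and 68.9), and Lmo2 (294) is near the table's median of 289.

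Most of the 25 peaks lay outside promoters, several of them in the Nfix locus. They comprised 2 promoter (8.0%), 18 intron, 4 intergenic and 1 UTR peak, while 33.3% of the table's peaks were at promoters, defined as 1000 bp upstream to 100 bp downstream of an annotated start. Of the 25, 16 were centred over 10 kb from the start of the gene they were named for, although other starts of that gene can be nearer. At 9 the nearest annotated start was that of another gene. Neither count was made over the table. GC content had a median of 54.7% in the 300 central bases, and 54.0% over the table.

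In the same windows GATA letters were found at 7 of 25 peaks (28%, against 17.9% of the table), the SCL E-box at 7 (28%, against 18.5%), ETS at 7 (28%, against 36.9%) and RUNX at 5 (20%, against 28.1%). The MYC E-box was at 1 (4%, against 6.86%). Among the table's intron and intergenic peaks, the nearer match in place, the shares for GATA, SCL E-box, ETS and RUNX were 24.1%, 22.6%, 40.7% and 36.5%. At the 22 stem cell gene peaks in such places they were 27.3%, 31.8%, 31.8% and 22.7%. All 7 windows with an SCL E-box belonged to transcription factors (of 18), with 0 among the 4 surface marker peaks. Nothing was tested on these counts.

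Several of the 28 genes without a peak of their own had one within 50 kb that the table named for another gene. A peak 287 bp upstream of the Runx3 start was named for Gm16225 and changed by 0.76, from 879.6 ± 108 to 1487 ± 271 (SD, n = 2 each). A peak 8.19 kb upstream of Tal1 (chr4:115047769-115048697) was named for Stil although the Tal1 start is the nearest, and went from 175 ± 26.5 to 282 ± 9.96, a change of 0.68. In an intron of Evi5 (chr5:107758961-107759808), 33.3 kb from the Gfi1 start, the nearest start was that of Gfi1, a repressor that restrains HSC proliferation, and the level went from 1090.3 ± 26.6 to 1854 ± 274, a change of 0.77. The count of 17 genes leaves out these 3 factor genes.

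The nearest peaks of Myb (26 kb, change 0.84) and Fli1 (39.4 kb, change 1.01) were named for Gm40608 and Gm47680. The nearest to Vwf, at 35.4 kb, was named for Gm26728 and was lower, 194 ± 9.0 against 105 ± 16.2, a change of -0.89. For 17 of the 28 genes no peak of the table was within 100 kb, and the median distance was 162 kb. If peaks were given to the gene with the nearest start, 15 of the 45 genes had a peak, and 14 if given to the gene whose body held it.

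Genes of the same pathways went in the same direction as the identity factors, which was that of nearly every peak in the table. Of 88 partners and relatives, 24 had a peak, with 38 peaks that were all higher in Sin3B-/-. Their median change was 0.83, beside 0.76 over the table. A change of at least 2-fold was reached by 8 of the 38, and by 26.1% of the table's peaks. Partners of the GATA, SCL, LMO2 and RUNX complexes had a peak at 4 of 16 genes. Zfpm1, the GATA cofactor FOG1, had 3 (0.65 to 1.24), and Cbfa2t3, the corepressor ETO2, had levels of 167 and 149 against 305 and 326 (1.0).

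Other ETS factors had a peak at 5 of 12 genes, with 4 in Elf1 and 3 in Spi1. The most changed Elf1 peak went from 32.6 and 22.6 to 113 and 87, a change of 1.86, and the Spi1 (PU.1) peaks changed by 0.59 to 1.0. MYC partners had a peak at 5 of 9 genes, and the MYC antagonist Mxd1 had the largest change of the related genes, from 15.3 and 15.8 to 51.9 and 67 (1.94) at an intergenic peak nearer to Asprv1. With centred libraries 3 of the 38 peaks stayed called higher, the Mxd1 peak and 2 of Elf1, beside 7.01% of the table.

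Cytokine receptors and ligands had a peak at 4 of 15 genes (Csf1r 0.86, Flt3l 0.84, Il6ra 0.98, Tie1 0.61). SLAM family and other surface proteins had one at 1 of 19, the adhesion receptor gene Adgrg1, and the LIN28, IGF2BP and Musashi relatives at 0 of 6. NFI, PAR bZIP and SOX factors had a peak at 5 of 11, among them Nfia (0.70) and Sox6 (1.05 at most).

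Those markers of other blood cells that had a peak moved in the same direction. Of 29 marker genes of other blood and vessel cells, 6 had a peak (Cd3d, Cebpe, Klf1, Epb42, Itga2b and Pf4). All 8 peaks were higher in Sin3B-/-, by 0.55 to 1.07, as were 95.7% of the table's peaks. Their summed level was 3113 and 2525 in Sin3B+/+ against 4211 and 4702 in Sin3B-/-, beside 12493 and 10599 against 17371 and 20114 at the stem cell gene peaks. None of the 5 B cell or 3 endothelial genes had a peak. The part of other cells in the changes was not tested, and in pooled cells a wider opening in each cell and a larger share of open cells cannot be told apart.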

How the data were processed

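The authors sorted the cells, made ATAC-Seq libraries with 12 PCR cycles, aligned reads with Bowtie2, called peaks with MACS2 and tested genotypes in DiffBind with DESeq2. The labels name build mm9, but the gene positions in the deposited table matched GRCm38 (GENCODE M21) for 96.6% of 5330 identifiers found, so GRCm38 was used. Versions and the normalization method were not given in the sources used here. The deposited values per library are a signal, reads per peak times 1 factor per library. The authors' own fold, level, p-value and FDR columns were not used.

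Levels were tested with limma 3.58.1 (R 4.3.3), two-sided, on log2(level + 1) with Benjamini-Hochberg adjustment at 0.05 over all 5332 peaks, all 4 libraries and no covariate. The pseudocount understates changes of low peaks. The limma fit was tested on simulated data. Nothing in the sources used here says that same-numbered libraries share a litter, day or batch, so they were not paired. Motifs and GC content were counted in the 300 central bases of every peak on GRCm38, peaks in UTRs included, and the sequences printed hold no annotated UTR. The genes and lists were chosen with earlier results of these data known. Every gene with a peak is named. The most changed peak of each gene, and any that was lower, has its 4 values, and other peaks of genes with 3 or more are given by range. Values of second peaks, of the peak beside Lyl1, of neighbours of genes without a peak and of related genes were chosen for display after they were seen. Alternatives were another pseudocount, a minimum level, blocks, centring, a stricter threshold, other peak to gene rules, 1 peak a gene and leaving out each library. Total depth is unknown here, and a floor of 3 steps was a level of 0.684 to 3 by library.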

Additional observations from a re-analysis of the deposited data

How the results depend on the processing

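The counts of 24 peaks higher and 1 lower were the same with a pseudocount of 8, with a mean level of at least 32, with the replicate block and with a crossed replicate block, which was fitted because deviations of same-numbered libraries correlated at -0.101 over peaks. At an adjusted p under 0.01, 22 were higher, and the share over the table at that threshold was not counted. With peaks given to the nearest start or the gene body, the sets themselves changed to 21 and 20 peaks. Of these, 20 and 19 were called higher and 1 lower in each, so every peak was still called. With centred libraries 0 were higher. Leaving out 1 library gave 11 to 24 higher (11 without Sin3B-/- replicate 2) and 1 lower each time, beside 3121 to 5100 higher of 5332 over the table. Such fits assume that the lone library varies like the other genotype.

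Of 225 values of single peaks under alternatives, 183 kept direction and call, 27 kept only direction and 15 changed sign, all with centred libraries, by construction of that setting. The 15 were Runx1 (-0.046 and -0.17), Gata2 (-0.23), Erg (-0.065), Myc (-0.20), Hhex (-0.082), Prdm16 (-0.091), Mllt3 (-0.12), Nfix (-0.11, -0.14, -0.17 and -0.18), Procr (-0.027), Esam (-0.068) and Angpt1 (-0.017). Centring also took the factor median from 0.67 to -0.086 and the surface marker median from 0.77 to 0.015, on the scale of the test. Leaving out 1 library gave surface marker medians of 0.64 to 0.93. With 2 libraries a genotype, depth and replicates limit every single value.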
